A study of Oryctolagus cuniculus with 8 samples.

Results

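Histones and the proteins that write, erase, read and move chromatin were followed in the forebrain of preterm rabbit pups given dexamethasone or saline. Members were the rabbit array probes whose own description names a histone, a chromodomain, bromodomain, SET domain or chromobox, the SWI/SNF complex, a lysine demethylase, a cytosine DNA methyltransferase or a high mobility group protein. The rule took 190 of 43603 probes, which stand for 87 of 23260 genes or transcripts. No probe carried a DNA methyltransferase description. Of the 87 genes, 83 had 1 RefSeq symbol and 66 could be tested through a probe of the rule.

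The pups were New Zealand rabbits born by caesarean section on gestational day 29 (term is day 32), fed by gavage and killed at postnatal day 14. The control group was 4 pups given saline vehicle. The dexamethasone group was 4 pups given the synthetic glucocorticoid intramuscularly at 0.25 mg/kg per dose, with 2 doses a day over at most 5 days. All 8 pups were preterm, so no comparison with term animals can be made, and the forebrain RNA is bulk RNA, in which fewer cells of a type and less RNA per cell cannot be told apart. The study's question was how glucocorticoid given after birth affects myelination, and the chromatin genes are one set of genes read on the same arrays.

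Each of the 4 two-colour arrays held 2 pups of the same group, 1 in each dye. Saline arrays were all on one slide and scan day and dexamethasone arrays all on another, so slide and treatment cannot be told apart. Between 39.1% and 64.3% of spots per sample were well above background, and no spot was saturated. Agilent's software marked 932 to 3022 outlier spots per saline sample and 197 to 509 per dexamethasone sample. Among the 190 member probes this removed 6 to 36 values per saline sample and 0 to 8 per dexamethasone sample. The 10 spike-in probes read RNA added at labelling. After normalisation their median log2 difference was -0.39, dexamethasone minus saline, and all 10 were below 0, from -0.55 to -0.30. The differences given below for LOC100350750, the H2ag-like transcript ENSOCUT00000011268, SMARCE1, HMGB1, BAZ2B and CHD8 lie within that range. Whether these members share the shift of the spike-in probes was not tested.

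DNA in the nucleus is wrapped around octamers of the core histones H2A, H2B, H3 and H4 and is held together by the linker histone H1. Replication-dependent histone genes lie in clusters and are expressed mostly while a cell copies its DNA, whereas replacement histones such as H3.3 and H2A.Z are made throughout the cell cycle and in neurons that no longer divide. Enzymes add or remove acetyl and methyl groups on histone tails, reader domains bind those groups, and remodelling ATPases slide or exchange nucleosomes. In the developing brain several of these proteins, CHD7, CHD8 and the SWI/SNF ATPases among them, are known for roles in neural progenitors and in oligodendrocyte maturation.

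The histone results turn on a few short probes, and the sequences show what each reads. The first set holds the histone probes with the smallest p-values. The array names the first of them histone cluster 1, H2bc-like, and RefSeq names it H1-4, a linker histone. The array calls the second histone cluster 1, H2ag-like, and RefSeq calls it H4C9, a histone H4 gene. The third is an H2B type 1-A-like gene, LOC100350750. Positions are those of the array's own annotation (oryCun2), as chr12:10915055-10915114 on the minus strand, chr8:24837245-24837304 on the plus strand and chr12:11283300-11283359 on the plus strand.
H1-4: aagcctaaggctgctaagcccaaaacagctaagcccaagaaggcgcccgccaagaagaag
H4C9: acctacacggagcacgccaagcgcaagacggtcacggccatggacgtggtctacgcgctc
LOC100350750: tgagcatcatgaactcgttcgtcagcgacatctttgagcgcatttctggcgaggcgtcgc

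A pair of probes for cluster H2A genes without a RefSeq symbol is shown because the probes are near copies of each other. ENSOCUT00000011268 is the array's other H2ag-like transcript (chr12:11289482-11289541, plus strand), and ENSOCUT00000017674 is its H2aa3-like transcript (chr13:42158973-42159032, minus strand). They match at 53 of 60 bases, and the capitals mark the 7 that differ.
ENSOCUT00000011268: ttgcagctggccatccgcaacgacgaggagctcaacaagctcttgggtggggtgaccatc
ENSOCUT00000017674: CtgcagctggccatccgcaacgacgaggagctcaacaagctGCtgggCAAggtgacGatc

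The histone H3 probes are set side by side because the array reads the same stretch in both replacement H3.3 genes, H3-3A (chr16:47986643-47986702) and H3-3B (chr4:76117845-76117904), and in the histone H3-like gene LOC100353127 (chr12:11021938-11021997), all on the plus strand. Capitals mark the 11 bases of each that differ from H3-3A. H3-3B and LOC100353127 differ from each other at 7 of 60 bases. Cross-hybridisation between such near-identical genes was not tested, so each histone value is that of the probe, and the gene is the one its annotation names.
H3-3A: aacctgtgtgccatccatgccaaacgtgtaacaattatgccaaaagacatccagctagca
H3-3B: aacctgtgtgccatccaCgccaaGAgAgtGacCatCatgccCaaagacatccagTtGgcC
LOC100353127: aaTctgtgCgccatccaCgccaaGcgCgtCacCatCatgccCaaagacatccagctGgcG

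No member passed the test over all genes between dexamethasone and saline. Of the 66 tested members 0 had a Benjamini-Hochberg adjusted p under 0.05 in limma, and the smallest adjusted p was 0.199. Over all 11186 genes tested, 7 passed, or 0.0626%. At an unadjusted p under 0.05 there were 13 members, or 19.7% of those tested, beside 13.8% of all genes. Of these, 10 were lower with dexamethasone, or 15.2% of members beside 7.44% of all genes, and 3 were higher, or 4.55% beside 6.35%. The groups did not overlap for 8 members, or 12.1% beside 13.4% of all genes. Of these 6 were lower with dexamethasone, or 9.09% beside 7.46%, and 2 were higher, or 3.03% beside 5.94%. The median log2 difference of the members was 0.02, equal at this precision to the 0.02 of all genes, and 36 members lay above 0 and 30 below. The member share at an unadjusted p under 0.05 moved with the processing. It was 9.09% beside 13.2% of all genes in the authors' deposited table, and 10.0% beside 10.4% with 2 array means against 2. With every probe on its own, 12.9% of member probes stood beside 12.7% of all probes. For genes above background in all 8 samples it was 24.4% beside 15.2%.

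**Figure D1:**
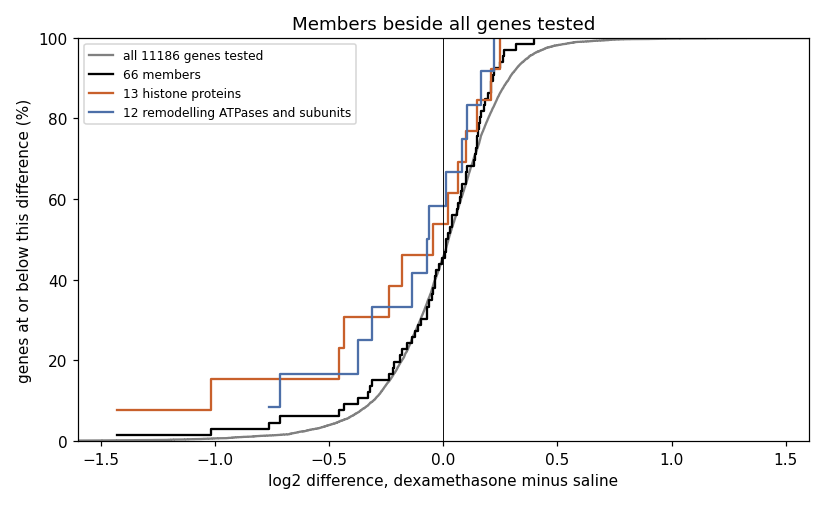
Cumulative share of genes (vertical axis, %) at or below each log2 difference, dexamethasone minus saline (horizontal axis), for all 11186 genes tested, the 66 members, the 13 histone proteins and the 12 remodelling ATPases and subunits. The member curve follows that of all genes near 0, and the histone and remodelling curves start with a few strongly negative members such as H1-4 at -1.43 and SMARCA2 at -0.76.

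Detection above background differed between the groups for some members, as it did for many other genes. Of the 66 tested members 45 were well above background in all 8 samples and 21 in 4 to 7. In 18 of those 21 fewer saline than dexamethasone samples were above background, beside 2732 of all 3908 genes detected in 4 to 7 samples. A member that passes the filter mainly through 1 group is bound to lean towards it, so the direction of these members is given as a value only. Among the 45 members detected in all 8 samples the groups did not overlap for 6 lower members, or 13.3%, and 0 higher ones. Of all genes detected in all 8 samples, 8.60% were lower and 5.21% higher without overlap.

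**Figure D2:**
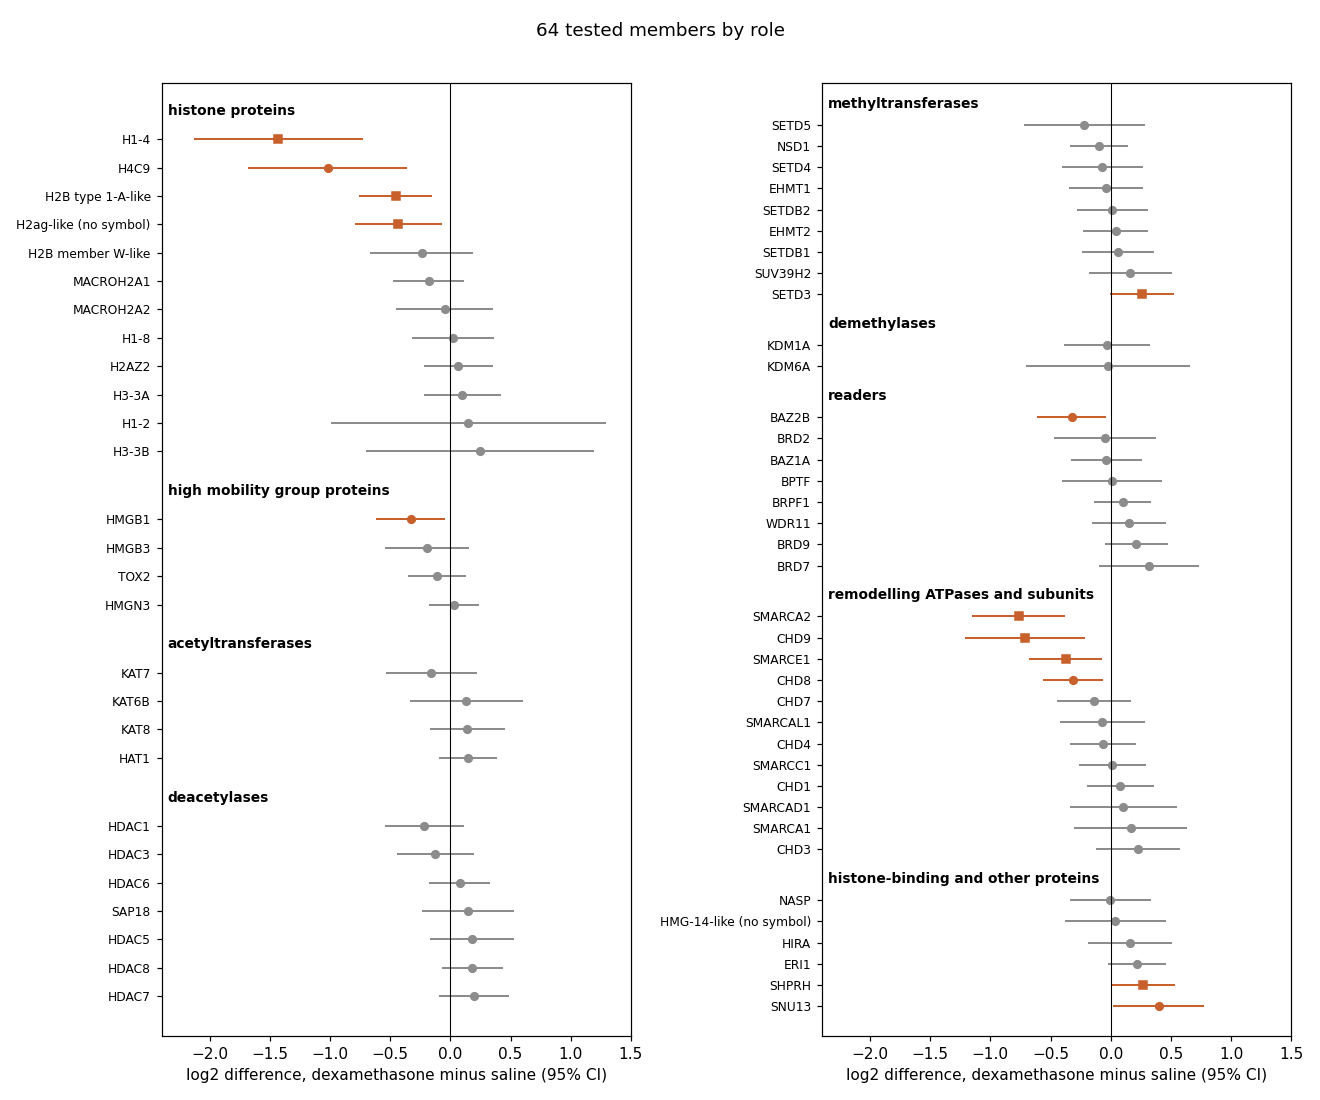
Log2 difference, dexamethasone minus saline, of 64 of the 66 tested members (points) with its 95% confidence interval (lines), grouped by role. Orange marks an unadjusted p under 0.05 and squares mark members whose groups did not overlap. The orange members are 4 histones, HMGB1, SETD3, BAZ2B, 4 remodelling genes, SHPRH and SNU13.

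Histone proteins held the largest difference of all members. Of 17 histone genes 13 were tested and 0 passed over all genes. At an unadjusted p under 0.05, 4 were lower, or 30.8% beside 7.44% of all genes, and 0 were higher, beside 6.35%. Their median log2 difference was -0.05, and 6 lay above 0 and 7 below.

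The H1-4 probe, which RefSeq assigns to a linker histone, read log2 intensities of 10.22, 9.38, 10.11 and 10.61 in saline 1 to 4 and of 8.41, 8.997, 8.68 and 8.52 in dexamethasone 1 to 4. Every dexamethasone sample was below every saline sample. The means were 10.08 ± 0.52 (SD, n = 4) and 8.65 ± 0.26 (SD, n = 4), a log2 difference of -1.43 (SE 0.30, 95% confidence interval from -2.13 to -0.73), or 2.69-fold lower. Its adjusted p in limma was 0.199. With single samples left out the difference ran from -1.71 to -1.22. Among these fits H1-4 passed only without saline 2, with an adjusted p of 0.0157 in limma. Saline 2 was the lowest saline sample, so leaving it out was bound to widen the difference, and that pass is no support. H1-4 also passed without the array of saline 1 and 2, where 2200 of 10334 genes passed. With each channel scaled to its 75th percentile it passed too, as did 2054 of 11186 genes.

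The H4C9 probe, for the core histone H4, read 9.96, 9.89, 10.45 and 10.69 in saline and 8.79, 9.91, 9.09 and 9.11 in dexamethasone. Dexamethasone 2 lay within the saline range and the other dexamethasone samples below it. Its log2 difference was -1.02 (SE 0.28, interval from -1.67 to -0.37, limma adjusted p = 0.287).

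LOC100350750, the H2B type 1-A-like gene, read 9.39, 9.31, 9.61 and 9.72 in saline and 8.92, 9.19, 8.94 and 9.16 in dexamethasone. The groups did not overlap, and the log2 difference was -0.46 (SE 0.13, interval from -0.75 to -0.16, limma adjusted p = 0.287).

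The H2ag-like transcript ENSOCUT00000011268, a core histone H2A by its description, was named after its values were seen. It read 12.23, 11.95 and 12.20 in saline 1, 2 and 4, its saline 3 spot being marked as an outlier and dropped, and 11.66, 11.68, 11.52 and 11.89 in dexamethasone. Here too the groups did not overlap, with a log2 difference of -0.43 (SE 0.15, limma adjusted p = 0.343). With each channel scaled to its 75th percentile in place of loess the sign turned, to 0.055.

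The other cluster histones gave less. H1-2, a linker histone that the array names H2bb-like, read 9.26, 8.97, 9.40 and 9.63 in saline and 8.77, 8.82 and 10.69 in dexamethasone 1 to 3, with the dexamethasone 4 spot dropped. Dexamethasone 3 was above and the other dexamethasone values below every saline sample, and the difference of 0.15 had an interval from -0.98 to 1.28. The H2aa3-like probe, the near copy shown above, could not be tested because 2 of its saline spots were outliers, and its values were 12.62 and 12.44 in saline 1 and 2 and 12.55, 12.33, 12.18 and 12.53 in dexamethasone. The H3-like probe of LOC100353127 kept only saline 4, at 13.64, beside 13.36, 13.37, 13.20 and 13.10 in dexamethasone. H1-1 exceeded background in 3 samples only and has no test. LOC100346975, an H2A-like gene whose member probe was above background in 0 samples, was read through a probe outside the rule, at a log2 difference of -0.16 (SE 0.22).

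The 6 replacement and variant histones differed by -0.18 to 0.25, and none reached an unadjusted p of 0.05. H3-3A, one of the genes for replacement histone H3.3, read 14.97, 15.07 and 15.11 in saline 1, 2 and 4 and 15.08, 15.31, 15.21 and 14.97 in dexamethasone, a difference of 0.10 (SE 0.13, interval from -0.21 to 0.41). H3-3B, the other H3.3 gene, was spread over 13.15, 13.75 and 14.84 in saline and 14.55, 14.50, 13.71 and 13.83 in dexamethasone, and its difference of 0.25 had an interval from -0.69 to 1.19. H2AZ2, a variant H2A.Z, differed by 0.07 (SE 0.12), and its 3 tested probes ran from -0.30 to 0.07. MACROH2A1 and MACROH2A2, which carry a large extra domain and mark silent chromatin, differed by -0.18 (SE 0.12) and -0.05 (SE 0.17). Of the germ cell histones, H1-8 differed by 0.02 (SE 0.14) and the testis-specific H2B-like LOC100352707 by -0.24 (SE 0.18).

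Split by textbook class, a division made after the values were seen, 5 of 9 replication-dependent histones were tested, 4 lay below 0 and their median was -0.46. The 5 include the H2B type 1-A-like LOC100350750, whose own difference is that median. Whether it belongs here or with the germ cell histones was not settled. All 6 replacement or variant histones were tested, 4 lay above 0 and their median was 0.08. This difference between classes was not tested.

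**Figure D3:**
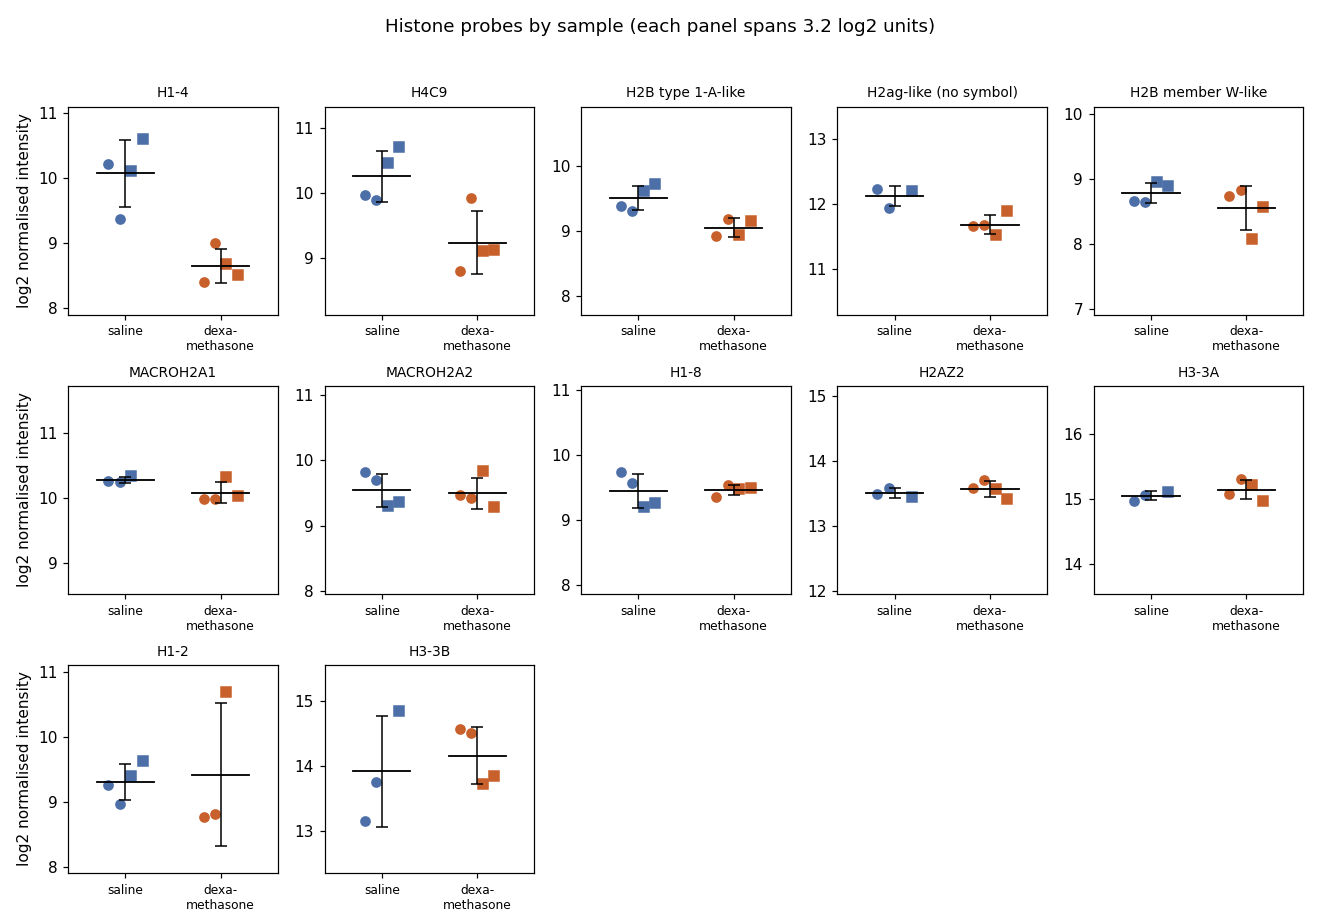
Log2 normalised intensity (vertical axis) of 12 of the 13 tested histone probes in each saline (blue) and dexamethasone (orange) sample. Circles and squares are the 2 arrays of a group, bars are the mean and SD, and every panel spans the same log2 range. In H1-4, the H2B type 1-A-like and the H2ag-like panels the groups do not overlap, while H3-3A and H2AZ2 lie level.

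Most cell cycle genes lay on the low side, as 4 of the 5 tested replication-dependent histones did. Of 36 such genes outside the rule, 24 were tested, 22 lay below 0 and 12 were lower at an unadjusted p under 0.05, with a median of -0.26. UBE2C, a ubiquitin-conjugating enzyme of mitosis, differed by -0.59 (SE 0.10) and the mitotic cyclin CCNB2 by -0.51 (SE 0.10), and 0 of the 24 passed over all genes (smallest limma adjusted p = 0.132). The mean level of the list, as deviation from each gene's mean, lay between 0.07 and 0.21 in saline and between -0.20 and -0.09 in dexamethasone samples. The 5 replication-dependent histones on the same scale lay between -0.03 and 0.65 in saline and between -0.62 and -0.14 in dexamethasone. As that class was drawn after the values were seen, its separation is no independent result. The DNA replication genes of the cell cycle list were mixed. MCM3, MCM4, MCM5, MCM6 and RRM2 differed by -0.34 to -0.14, PCNA and RRM1 by -0.09, MCM7 by 0.03 and TYMS by 0.05. The part of cell cycle genes in the histone values was not tested.

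Remodelling ATPases and their subunits use ATP to slide, evict or exchange nucleosomes. Of 15 genes 12 were tested and 0 passed over all genes. At an unadjusted p under 0.05, 4 were lower, or 33.3% beside 7.44% of all genes, and 0 were higher, beside 6.35%. Their median was -0.07. The groups did not overlap for 3, all lower with dexamethasone, or 25.0% beside 7.46% of all genes. The probes of SMARCA2 and CHD8 are shown because all 5 probes of each gene overlap one another, so that they are not independent readings. Capitals mark the 56 bases that every SMARCA2 probe shares and the 46 that every CHD8 probe shares. The SMARCA2 probe lies on chromosome 1 between 52324882 and 52327725, a span longer than the probe itself, and the CHD8 probe at chr17:41657441-41657500, both on the minus strand.
SMARCA2: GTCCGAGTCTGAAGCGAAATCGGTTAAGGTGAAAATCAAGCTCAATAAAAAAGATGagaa
CHD8: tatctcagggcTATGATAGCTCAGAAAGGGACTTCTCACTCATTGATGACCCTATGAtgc

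SMARCA2, an ATPase of the SWI/SNF complex, read 13.06, 12.91, 12.72 and 13.003 in saline and 12.33, 12.27, 12.26 and 11.77 in dexamethasone. All dexamethasone samples lay below all saline samples. The means were 12.92 ± 0.15 (SD, n = 4) and 12.16 ± 0.26 (SD, n = 4), a log2 difference of -0.76 (SE 0.16, interval from -1.14 to -0.39), or 1.70-fold lower, with a limma adjusted p of 0.199. The other testable overlapping probe read 12.95, 12.61, 12.77 and 12.71 in saline and 11.89, 11.89, 11.86 and 11.41 in dexamethasone, a difference of -0.998 (SE 0.13). When each of 20704 probes was tested on its own, that probe had a limma adjusted p of 0.0870. In its 3 remaining probes 2 or 3 of the saline spots were outliers, and the kept saline values all lay above the dexamethasone values of the same probe.

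CHD8, a chromodomain helicase, read 12.27, 11.96, 12.14 and 12.03 in saline and 11.82, 11.78, 11.98 and 11.57 in dexamethasone. Dexamethasone 3 was just above the lowest saline sample and the rest were below. Its difference was -0.31 (SE 0.11, limma adjusted p = 0.325), and all 4 tested probes were lower, from -0.44 to -0.24, but percentile scaling turned it to 0.31.

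SMARCE1, a DNA-binding subunit of SWI/SNF, read 10.36, 10.40, 10.04 and 10.18 in saline and 9.93, 9.77 and 9.86 in dexamethasone 1, 3 and 4, with the dexamethasone 2 spot dropped. The groups did not overlap, and the difference was -0.38 (SE 0.13, limma adjusted p = 0.329).

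CHD9, another chromodomain helicase, had probes that disagreed. The probe that stood for it (chr5:9765024-9765083, plus strand) read 10.38, 10.24, 10.74 and 10.96 in saline and 9.67, 10.09 and 9.88 in dexamethasone 1, 3 and 4, a difference of -0.71 (SE 0.21, limma adjusted p = 0.309) without overlap. Its other 3 probes, the nearest of which (chr5:9765091-9765150) starts after a gap of 7 bases, gave differences of 0.03 to 0.20 and were above background in 2 of 4 saline and 2 or 3 of 4 dexamethasone samples. Both neighbouring probes are shown because they read adjoining stretches with opposite signs.
CHD9, probe read: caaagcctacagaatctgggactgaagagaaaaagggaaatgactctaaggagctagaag
CHD9, next probe: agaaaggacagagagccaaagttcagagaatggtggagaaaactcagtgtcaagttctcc

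**Figure D4:**
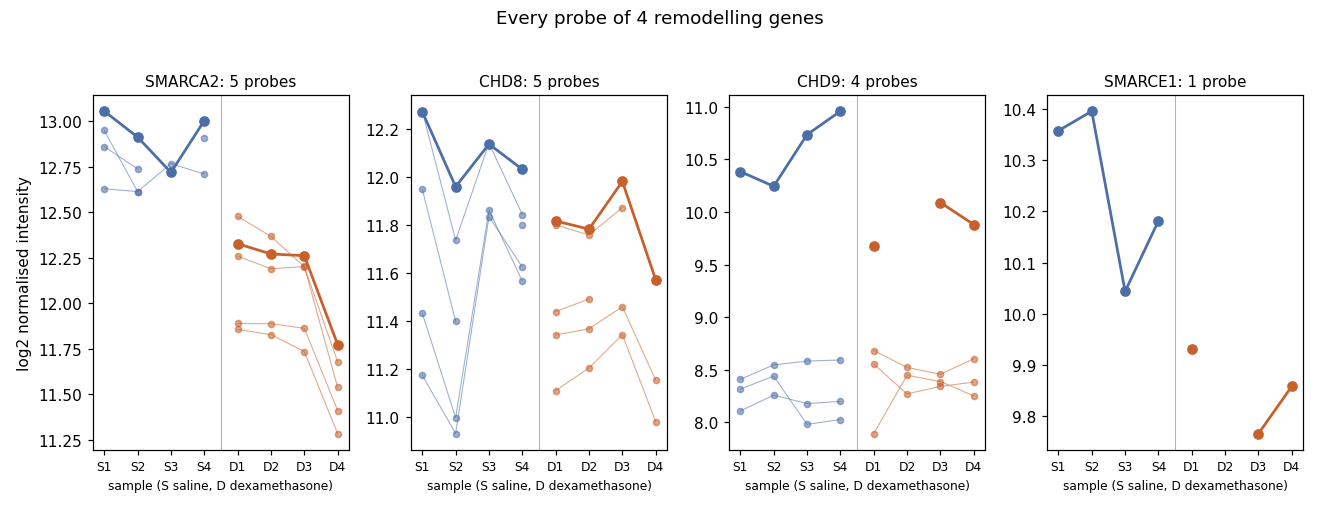
Log2 normalised intensity (vertical axis) of every probe of SMARCA2, CHD8, CHD9 and SMARCE1 in saline (S, blue) and dexamethasone (D, orange) samples. Lines join the values of 1 probe, the thick line is the probe read for the gene, and gaps are dropped outlier spots. All 5 SMARCA2 probes are lower with dexamethasone, while only the thick CHD9 line is.

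The remaining remodellers differed by less than their intervals. CHD4, the ATPase of the NuRD complex, read 10.11, 9.91, 10.27 and 10.23 in saline and 10.22, 9.87, 10.27 and 9.92 in dexamethasone, a difference of -0.06 (interval from -0.33 to 0.20). CHD7, a helicase known from neural crest and oligodendrocyte development, differed by -0.14 (interval from -0.44 to 0.16). CHD1, CHD3, SMARCA1, SMARCAD1, SMARCAL1 and SMARCC1 ran from -0.07 to 0.22. SMARCD2, CHD6 and a SMARCC2-like transcript were above background in too few samples to test.

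High mobility group proteins bend or loosen chromatin. Of 5 genes 4 were tested, 0 passed over all genes, and the median was -0.15. At an unadjusted p under 0.05, 1 was lower, or 25.0% beside 7.44% of all genes. HMGB1, an abundant DNA-bending protein, read 14.79, 14.53 and 14.41 in saline 1, 2 and 4 and 14.56, 14.26, 14.30 and 14.04 in dexamethasone. Dexamethasone 1 lay inside the saline range, and the difference was -0.33 (SE 0.12, limma adjusted p = 0.345), or 0.17 with percentile scaling. Its 5 probes overlap by 56 bases, and in the other 4 no more than 2 saline spots survived the outlier filter. HMGB3 differed by -0.19 (SE 0.15), and its 5 probes, shifted along one site, were all lower, from -0.48 to -0.04. HMGN3, a nucleosome-binding protein, differed by 0.03 (interval from -0.17 to 0.23) and TOX2, an HMG-box transcription factor, by -0.11.

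Among enzymes that write or remove acetyl groups no member reached an unadjusted p of 0.05 in this fit, where 1 probe stood for each gene. HDAC5 differed by 0.18 (SE 0.15) through that probe. Its other probe gave 0.42 (SE 0.17), with an unadjusted limma p of 0.0419 and an adjusted p of 0.388 when each probe was tested on its own. All 4 tested acetyltransferases of 5 and all 7 tested deacetylase genes of 8 had adjusted p-values of 0.442 or more in limma, with medians of 0.14 for both. HAT1, which acetylates new histones, read 9.89, 10.02, 9.89 and 9.88 in saline and 9.93, 10.11, 9.94 and 10.28 in dexamethasone, a difference of 0.15 (SE 0.10). KAT8, an H4 acetyltransferase, differed by 0.14 (SE 0.13). The 3 overlapping probes of KAT6B disagreed, from -0.46 to 0.13.

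HDAC1, a deacetylase of the major repressor complexes, read 9.43, 9.39, 9.82 and 9.82 in saline and 9.43, 9.26, 9.37 and 9.52 in dexamethasone. Its saline values were high on one array and level with dexamethasone on the other, and the difference was -0.22 (SE 0.14, interval from -0.54 to 0.10). HDAC3, the catalytic subunit of the NCoR complex, differed by -0.12 (SE 0.14). HDAC8 differed by 0.18 (SE 0.11) and HDAC7, a class II deacetylase that the array calls histone deacetylase 9-like, by 0.20 (SE 0.12). SAP18, a subunit of the Sin3 complex, differed by 0.14 and its 8 tested probes ran from -0.0065 to 0.20. HDAC11 was above background in 0 of 8 samples.

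Methyltransferases and demethylases lay near 0, with medians of 0.01 over 9 tested of 11 and -0.03 over 2 tested of 3. Of the methyltransferases 1 was higher at an unadjusted p under 0.05, or 11.1% beside 6.35% of all genes, and 0 were lower, beside 7.44%. SETD3, an actin histidine methyltransferase with a SET domain, read 8.37, 8.38, 8.34 and 8.32 in saline and 8.52, 8.55, 8.86 and 8.51 in dexamethasone. The groups did not overlap, and the difference was 0.26 (SE 0.11, limma adjusted p = 0.360). Only 2 of 4 saline samples were above background for this probe, beside 4 of 4 with dexamethasone, and percentile scaling gave -0.82. SUV39H2, which methylates histone H3 in heterochromatin, differed by 0.16 (SE 0.15), and its 3 tested probes gave 0.14 to 0.20. SETDB1, another enzyme of H3 silencing, differed by 0.06 (interval from -0.23 to 0.35). The demethylases KDM1A and KDM6A, of which the first removes active H3 marks and the second a polycomb mark, differed by -0.03 (interval from -0.38 to 0.31) and -0.02 (interval from -0.69 to 0.65). KDM6A was high in saline 1, at 10.77, and in dexamethasone 1 and 4, at 10.34 and 10.64, beside 9.83 to 10.04 in the other samples. Its other tested probes gave -0.43 (SE 0.25) and -0.14 (SE 0.14).

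Readers of acetylated or methylated histones had 9 tested of 16 and a median of 0.07. At an unadjusted p under 0.05, 1 member was lower, or 11.1% beside 7.44% of all genes. That member was BAZ2B, a bromodomain protein, at 9.32, 9.47, 9.60 and 9.69 in saline and 9.05, 9.14, 9.12 and 9.46 in dexamethasone. Dexamethasone 4 lay within the saline range, the difference was -0.32 (SE 0.12, limma adjusted p = 0.345), and its other probe gave -0.17. BRD9, a bromodomain subunit of a SWI/SNF form, differed by 0.21 (SE 0.11). BRD2, which binds acetylated histones, differed by -0.05 (interval from -0.47 to 0.37), and its other tested probe by 0.35 (SE 0.20). CBX3, a heterochromatin protein whose member probe kept 1 dexamethasone value, was read through a probe outside the rule at 0.06 (SE 0.20).

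Histone-binding and other proteins that the rule takes by name had 6 tested of 7, 5 above 0 and a median of 0.19. Of these 2 were higher at an unadjusted p under 0.05, or 33.3% beside 6.35% of all genes, and 0 were lower, beside 7.44%. SNU13, an RNA-binding protein of the spliceosome that the array describes as a non-histone protein, read 12.05, 11.71, 11.72 and 11.73 in saline and 12.00, 12.25 and 12.35 in dexamethasone 1 to 3, with dexamethasone 4 dropped. Its difference was 0.40 (SE 0.16, limma adjusted p = 0.358) and its second probe gave 0.05. SHPRH, a helicase and ubiquitin ligase, read 8.19, 8.38, 8.38 and 8.36 in saline and 8.74, 8.54, 8.46 and 8.64 in dexamethasone. The groups did not overlap, the difference was 0.27 (SE 0.11, limma adjusted p = 0.360), and 2 of 4 saline samples were above background. Percentile scaling turned it to -0.82. The histone chaperones HIRA and NASP differed by 0.16 (SE 0.15) and -0.01 (SE 0.14).

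CBX3 and LOC100346975 were read only through probes outside the rule, and 19 members were left untested. Of these 19, 4 were above background in 0 samples, 13 in 1 to 3, and 2 had too few values once outliers were dropped. BRPF3, a bromodomain and PHD finger protein, was one of them. It read 7.77, 7.79, 7.51 and 7.51 in saline, 10.74 and 10.17 in dexamethasone 1 and 2, which share an array, and 7.64 and 7.90 in dexamethasone 3 and 4. Whether its high values belong to the array or to the pups was not tested.

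Other chromatin genes outside the rule were read from lists of the same pathway. No list had a gene that passed over all genes. At an unadjusted p under 0.05, 6.35% of all genes were higher and 7.44% lower, and the shares below are at the same threshold. The polycomb list had 12 tested of 25, 2 higher (16.7%) and 1 lower (8.33%), and a median of 0.04. PCGF5, a polycomb ring finger protein, differed by -0.69 (SE 0.28) and RNF2, the H2A ubiquitin ligase, by 0.38 (SE 0.16). Acetylation genes had 13 tested of 31, 1 higher (7.69%) and 0 lower. The higher gene was KAT5, an acetyltransferase, at 0.27 (SE 0.11). Methylation genes had 9 tested of 34, 1 higher (11.1%) and 0 lower. Here the higher gene was PRMT5, an arginine methyltransferase, at 0.33 (SE 0.09). Remodelling and architecture genes had 24 tested of 35, 2 higher (8.33%) and 4 lower (16.7%), with a median of -0.02. ARID2, a subunit of a SWI/SNF form, differed by -0.38 (SE 0.10) and SMCHD1, a silencing protein of the SMC family, by -0.34 (SE 0.10). Histone chaperones had 8 tested of 22, 0 higher and 1 lower (12.5%), ANP32B at -0.67 (SE 0.18), and a median of -0.15.

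Markers of the cells of the forebrain were present in both groups. Of the neuron list 8 of 14 genes were tested, of oligodendrocytes and their precursors 7 of 16, of astrocytes 8 of 12, of microglia and macrophages 4 of 12, of endothelial cells and pericytes 5 of 12, of blood cells 5 of 13, and of choroid plexus, ependyma and meninges 11 of 14. PECAM1, FLT1, KDR, PDGFRB, PTPRC, CD3E and CLIC6 were above background in 0 samples. The mean list levels, as deviations from each gene's mean, overlapped between the groups for each of these lists. For neurons the saline levels lay between -0.18 and 0.04 and the dexamethasone levels between -0.22 and 0.33, and for oligodendrocytes between -0.05 and 0.07 and between -0.16 and 0.21. Single markers differed both ways. At an unadjusted limma p under 0.05, the oligodendrocyte markers MAL (0.51) and UGT8 (0.29) were higher and CLDN11 (-0.46) lower. Of astrocyte markers ALDOC (0.63) and APOE (0.46) were higher and ATP1B2 (-0.52) lower. Of blood markers 2 were lower, among them S100A9 at -0.93 (limma adjusted p = 0.0719). Neurons had 1 lower, endothelial cells 1 higher, choroid plexus 1 of each and microglia 0. The mix of cells was not tested.

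Which members passed depended on single arrays. The fit allows the 2 channels of an array to vary together, at an estimated correlation of 0.24, and without the array of saline 1 and 2 that estimate was -0.31. With that array left out, 10 of 54 tested members passed an adjusted p of 0.05 in limma, beside 2200 of 10334 genes. Of the 10 members, 8 were lower (BAZ2B, CHD9, H1-4, H4C9, HDAC1, LOC100350750, SETD5 and SMARCA2) and 2 higher with dexamethasone (BRD9 and SUV39H2). Without the array of saline 3 and 4 the estimate was -0.38 and 1 of 66 members passed (SMARCA2), beside 193 of 11004 genes. With either dexamethasone array left out 0 members passed. The range of H1-4 over 27 alternatives was -2.34 to -1.15 and its adjusted p ran from 0.00245 to 0.810. For SMARCA2 the range was -0.96 to -0.13 and its adjusted p ran from 0.0310 to 0.839.

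**Figure D5:**
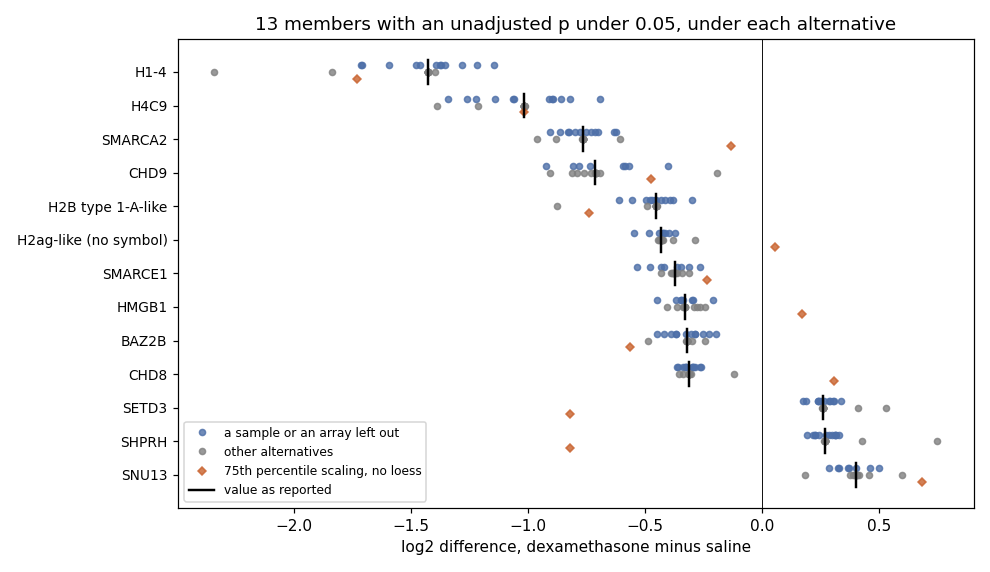
Log2 difference, dexamethasone minus saline (horizontal axis), of the 13 members with an unadjusted p under 0.05, as reported (black bar), with a sample or an array left out (blue), under other alternatives (grey) and with each channel scaled to its 75th percentile without loess (orange diamonds). H1-4 and H4C9 stay below 0 throughout, and the diamonds of CHD8, HMGB1, the H2ag-like transcript, SETD3 and SHPRH lie across 0.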

How the data were processed

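Forebrain RNA of 8 pups was hybridised to 4 Agilent 2-colour arrays. The authors deposited scanner files with spot intensity per dye (mean, median and background), made with Agilent Feature Extraction (11.0.1.1 per the file headers, 10.7.3.1 per the submitters' processing notes). The signal in the authors' deposited table is each spot's median minus background intensity, divided by a constant per column.

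Each sample was read in its own dye, per the labels. Intensities were corrected with normexp (offset 50), loess and Aquantile in limma 3.58.1 (R 4.3.3), with outlier spots left out. Probes had to exceed background clearly in 4 or more of the 8 samples, and those with at least 3 values per group were kept, and the brightest stood for a gene. The log2 values, computed here from the deposited intensities, were fitted with group and dye, with array as a random block, and p-values were Benjamini-Hochberg adjusted over 11186 genes. The fit was tested on simulated data.

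Of all probes, 23598 had 1 symbol in the array's annotation or RefSeq (mOryCun1.1), 394 several and 19611 none. Members and lists were chosen with earlier results of these data known. Named genes were the 2 with the smallest p in each role, the 5 largest differences in each direction without overlap, and a list of well-known members, of which 2 are not reported here. Alternatives varied the normalisation, filters, probe choice, model and samples. The number of arrays limits the precision.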

Additional observations from a re-analysis of the deposited data

Results flagged for a closer look

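In 7 of 52 groups of 4 values of the named members, 1 sample stood apart from the other 3 of its group, where chance gives about 1 in 20 groups. High samples were KDM6A in saline 1, at 10.77 beside a next value of 10.04, SNU13 in saline 1, at 12.05 beside 11.73, HAT1 in saline 2, at 10.02 beside 9.89, and SETD3 in dexamethasone 3, at 8.86 beside 8.55. Low samples were SMARCA2 in dexamethasone 4, at 11.77 beside 12.26, HDAC8 in dexamethasone 2, at 8.88 beside 9.08, and SHPRH in saline 1, at 8.19 beside 8.36.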

How the results depend on the processing

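Over 756 repeated differences of 30 named members, 701 kept their direction and their side of the adjusted threshold, 12 passed it and 43 changed sign, and 28 alternatives were run. The 7 genes called became 14 with Agilent's processed signals, 3 with quantile normalisation, 3 with probes above background in all 8 samples, 2 with no filter, 11 with probes averaged, 22 with no array block, 0 with 2 array means against 2, 15 with no dye term and 21 at an adjusted p under 0.1. With the arrays left out in turn they were 2200, 193, 0 and 1, and with single samples left out 0 to 11. Chromatin genes called were 10 of 54 without array 1, beside 2200 of 10334 genes, and 1 of 66 without array 2, beside 193 of 11004. With single samples left out they were 0 to 1. The median of the chromatin genes was 0.078 without array 1 and 0.12 in the deposited table, where all genes had 0.13. Scaling to the 75th percentile moved the median of all genes to -0.25 and that of members to -0.25. It called 2054 of 11186 genes and 7 of 66 members, H1-4 among them. Same-numbered samples of the 2 groups did not deviate together (correlations from -0.27 to -0.10), so the numbers do not pair them. A replicate block called 1 gene and 0 members. Signs changed with percentile scaling for BRD2 (0.24), BRD9 (-0.25), CHD4 (0.14), CHD8 (0.31), the H2ag-like ENSOCUT00000011268 (0.055), HDAC7 (-0.33), HDAC8 (-0.40), HMGB1 (0.17), HMGB3 (0.14), KDM6A (0.14), SETD3 (-0.82), SETDB1 (-0.88), SHPRH (-0.82) and SUV39H2 (-0.55). They changed with processed signals for CHD4 (0.032), KDM1A (0.32) and SETDB1 (-0.031), in the deposited table for BRD2 (0.082), CHD4 (0.12), HDAC3 (0.039) and KDM6A (0.12), and with probes averaged for BRD2 (0.24). Without array 1 they changed for KDM6A (0.19) and SETDB1 (-0.10), without array 2 for BRD2 (0.0073), CHD4 (0.057), CHD7 (0.0033), KDM1A (0.11) and SUV39H2 (-0.075), and without array 3 for BRD2 (0.062), H3-3B (-0.14), KDM1A (0.036) and KDM6A (0.044). With single samples left out BRD2 ran from -0.21 to 0.11, CHD4 from -0.11 to 0.025, KDM1A from -0.15 to 0.051, KDM6A from -0.27 to 0.20 and SETDB1 from -0.0072 to 0.15. The cause was not tested.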
